A study of Rattus norvegicus with 10 samples.

Results

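The genes described here encode ubiquitin ligases and deubiquitinases in the rat lens capsule. They were chosen by symbol, from prefixes of large enzyme families (Rnf, Znrf, Siah, Trim, Fbx, Cul, Klhl, Herc, Usp, Otud, Uch and others). The prefixes do not use the values, but they were chosen with earlier results of these data known. Of the 3334 genes in the deposited table, 53 had such a symbol with its first letter in upper case. They were 18 RING genes, 8 TRIM genes, 8 F-box genes, 3 cullins, 6 BTB-Kelch genes, 1 HECT gene, 7 genes with the Usp prefix and 2 of the OTU and UCH families. Usp6nl carries the prefix, but its product is a GTPase-activating protein and not a deubiquitinase. Another symbol in the table had been turned into a March date and was not counted. Nor was rnf141, which the table writes in lower case and which the symbol rule, being case-sensitive, passed over. Its mean FPKM was 44.3 and its log2 fold change 0.44.

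Ubiquitin is a small protein that is joined to other proteins by an activating enzyme (E1), a conjugating enzyme (E2) and a ligase (E3), and the ligase chooses the target. Chains of ubiquitin send proteins to the proteasome or alter their traffic and signalling, and deubiquitinases take the chains off again. Ligases work as single RING, TRIM or HECT proteins, or as cullin scaffolds that hold a RING subunit at one end and an exchangeable substrate receptor, such as an F-box or BTB-Kelch protein, at the other. In the lens, where fibre cells clear their organelles and keep their proteins for life, this pathway takes part in differentiation and in protein quality control.

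RNA was sequenced from the lens capsules of 10 male Sprague-Dawley rats aged 6 weeks, with both capsules of a rat pooled. In the Hypothermia Group (n = 5) the isolated lenses were kept in Hibernate-A medium at 4°C for 8 h before the capsules were removed, and in the Normal Group (n = 5) the capsules were taken straight after euthanasia. Cold, time after death and culture in medium therefore cannot be told apart in this comparison. The table was a selected list: the group means of every gene in it differed by at least 0.25 on the log2 scale, and all 53 members had an unadjusted p under 0.05, as had 3221 of the 3222 genes tested. The p-values are not independent of that selection, and genes outside the list were not analysed here.

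Each Hypothermia rat had 9026144 to 12415121 counts over the listed genes, and each Normal rat had 4792595 to 8177803. Markers of lens fibre cells, which lie beneath the capsule and its epithelium, took 58.4% to 70.1% of these counts in Hypothermia rats and 22.3% to 52.2% in Normal rats. All 20 listed fibre markers of 22 were called higher, and 17 with TMM, another scaling. Their summed normalized count ran from 5511389 to 11698077 in Hypothermia rats, while Normal rats had 849195 to 3946995. Of 8 lens epithelium markers, 3 were listed (Gja1, Pax6 and Mab21l1), of which edgeR called 0 and DESeq2 called 2, with 3 at an unadjusted p under 0.05 by edgeR. Their summed normalized count was 24571 to 28415 in the Hypothermia Group and 29694 to 35998 in the Normal Group. By edgeR 2 of these 3 were fitted lower, Gja1 at -0.43 and Pax6 at -0.26 on the log2 scale, and Mab21l1 was not. Ciliary, iris and pigment markers (6 of 11 listed) summed to 213 to 455 and to 414 to 1705, and fibroblast and zonule markers (3 of 9 listed) to 935 to 4911 and to 2034 to 30336. Of the smooth muscle markers 1 of 4 was listed, Tagln, at 25.1 to 52.4 and 31.9 to 274, and no listed gene came from the retina, blood, immune or endothelial lists. The part of fibre cell RNA in the members' values was not tested. In whole capsules, fewer cells of a type and less RNA per cell cannot be told apart.

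Of the 53 members, 25 were called higher in the Hypothermia Group and 12 lower, and 16 did not pass an adjusted p of 0.05 by edgeR's quasi-likelihood test. These are shares of 47.2% and 22.6%, beside 49.1% called higher and 17.2% called lower among all 3222 genes tested, so the members' shares lay near the background. The adjustment was over a round 20000 genes, since the table is a selected list. Adjusted over the 3222 tested genes alone, all 53 members passed, 33 higher and 20 lower, so each of the 16 genes not called depends on that choice. That adjustment passes nearly any gene of this list, since 3221 of the 3222 had an unadjusted p under 0.05 by edgeR. Passing it is therefore not particular to the members. The median log2 fold change of the members was 0.30, and that of all tested genes was 0.36. The members called higher had fold changes of 0.28 to 2.0 on the log2 scale, and those called lower of -0.75 to -0.27. By more than 1 on the log2 scale, 4 members were called higher (Rnf165, Rnf19b, Uchl1 and Trim36), beside 9.81% of all tested genes. In the other direction edgeR called 0 members beyond 1, beside 1.43% of all tested genes, also 0 at an unadjusted p under 0.05 and 0 by DESeq2. The 5 Hypothermia rats all lay above the 5 Normal rats for 22 members, beside 41.9% of all tested genes, and all below them for 9 members, beside 16.7%. The ligase families held 20 called higher and 10 lower of 44, and the deubiquitinase families 5 higher and 2 lower of 9.

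The split between higher and lower calls depended on the scaling. The values above used the size factors of the authors. TMM scaling on the listed genes, which assumes that most of them do not change, moved the median of all genes by -0.29 on the log2 scale. That assumption is in doubt for a selected list, in which 3221 of 3222 tested genes had an unadjusted p under 0.05 by edgeR. With TMM, 6 members were called higher and 20 lower, so higher genes made up 23.1% of the called members instead of 67.6%. Among all tested genes the same change of scaling gave 18.8% called higher and 33.8% called lower, and higher genes made up 35.8% of the calls instead of 74.1%. The 6 members called higher under both scalings were Rnf165, Rnf19b, Uchl1, Fbxw2, Usp5 and Rnf10. All 12 members called lower were also called lower with TMM, but a shift downwards could hardly undo a lower call. Another 5 members, Cul2, Fbxo22, Fbxw5, Fbxw8 and Rnf126, had a fitted change above 0 with the size factors of the authors and below 0 with TMM.

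**Figure D1:**
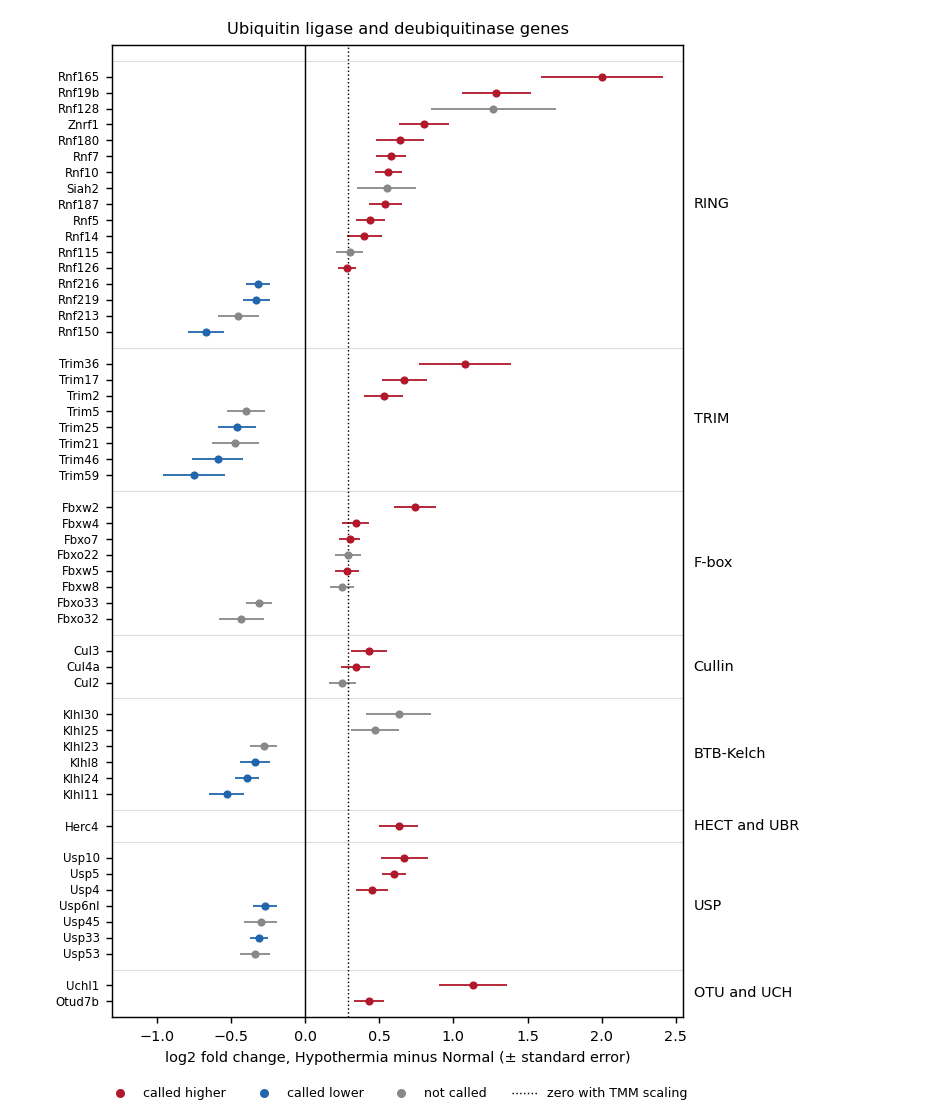
Fitted log2 fold changes (Hypothermia minus Normal, x axis) of 52 of the members, with bars for the standard error, grouped by enzyme family; red points were called higher, blue points lower and grey points not called by edgeR. The dotted line is the zero of TMM scaling: RING genes spread from Rnf150 at -0.67 to Rnf165 at 2.0, and red points near the dotted line had no call with TMM.

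Among the RING genes, in which a zinc-binding RING domain recruits the E2, 10 of 18 were called higher (55.6%) and 4 lower (22.2%). These shares lay near the 49.1% and 17.2% of all tested genes, and the median log2 fold change of the family was 0.49. With TMM 3 were called higher and 5 lower, beside 18.8% and 33.8% of all tested genes. Rnf19b encodes a ligase of the RING-between-RING type that is known from lysosomal membranes of immune cells (chr5:147246037-147270957, plus strand, Rnor_6.0). Its normalized counts were 2127, 1697, 1867, 1589 and 2489 in Hypothermia rats 1 to 5, and 1340, 762, 572, 599 and 722 in Normal rats 1 to 5. The groups did not overlap, and Normal rat 1 lay far above the other Normal rats. The log2 fold change was 1.29 (SE 0.23, edgeR adjusted p = 0.00768), a 2.45-fold difference, and 1.02 with TMM.

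Rnf165, a relative of the SMAD-regulating ligase Arkadia, had the highest fold change of the members (chr18:73831326-73873280, minus strand, Rnor_6.0). Its normalized counts were low, at 91.6, 61.7, 108, 77.6 and 159 in the Hypothermia rats and 49.9, 28.6, 10.3, 13.6 and 22.0 in the Normal rats. Each Hypothermia rat was above each Normal rat. The log2 fold change was 2.0 (SE 0.41, adjusted p = 0.0114), and 1.72 with TMM. Rnf187, a coactivator of c-Jun, had the highest FPKM (a level corrected for gene length and sequencing depth) of the RING genes, at 107 ± 11.3 in the Hypothermia Group and 73.6 ± 10.5 in the Normal Group (SD, n = 5 each). Its normalized counts were 3394, 3044, 3954, 3193 and 3211 against 2703, 2633, 2013, 2020 and 2216, without overlap. The log2 fold change was 0.54 (SE 0.11, adjusted p = 0.0121). With TMM it was 0.25 and was not called.

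Rnf150, a transmembrane RING ligase, had the lowest fold change of the RING genes. The Hypothermia rats had normalized counts of 152, 147, 126, 105 and 129, and the Normal rats of 206, 227, 199, 182 and 234. All Hypothermia rats were below all Normal rats, with a log2 fold change of -0.67 (SE 0.12, adjusted p = 0.00808) and of -0.95 with TMM.

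Several further RING genes are given although the rule for named genes did not pick them, and they were chosen after their values were seen. Rnf10, a ligase that marks proteins of the small ribosomal subunit, had normalized counts of 4344, 3874, 4392, 3820 and 4730 against 3345, 2848, 2700, 2681 and 2785. Its log2 fold change was 0.56 (SE 0.09, adjusted p = 0.00657), and 0.27 with TMM, both called. Rnf7, the RING subunit that pairs with the cullin Cul5, rose by 0.58 on the log2 scale (SE 0.10, adjusted p = 0.00732) and had 0.29 with TMM, which was not called. Znrf1, a membrane-linked ligase first studied in nerves, rose by 0.80 (SE 0.17, adjusted p = 0.0129), and its value of 0.52 with TMM was not called. Rnf5, which works in quality control at the endoplasmic reticulum, had 0.44, and Rnf126, which clears mislocalised proteins in the cytosol, had 0.28. Rnf5 lost its call without Normal rat 4 or Normal rat 5, with adjusted p-values up to 0.0530. Rnf128, which is known from unresponsive T cells, had 1.27 (SE 0.42) and was not called (adjusted p = 0.0824). Its normalized counts were 12.5 to 45.7 in the Hypothermia Group and 4.77 to 14.6 in the Normal Group, and the groups overlapped. Rnf213, a very large ligase linked to moyamoya disease, had -0.45 and was not called (adjusted p = 0.0584). Siah2, a ligase of the hypoxia response, had 0.55 and was not called (adjusted p = 0.114).

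**Figure D2:**
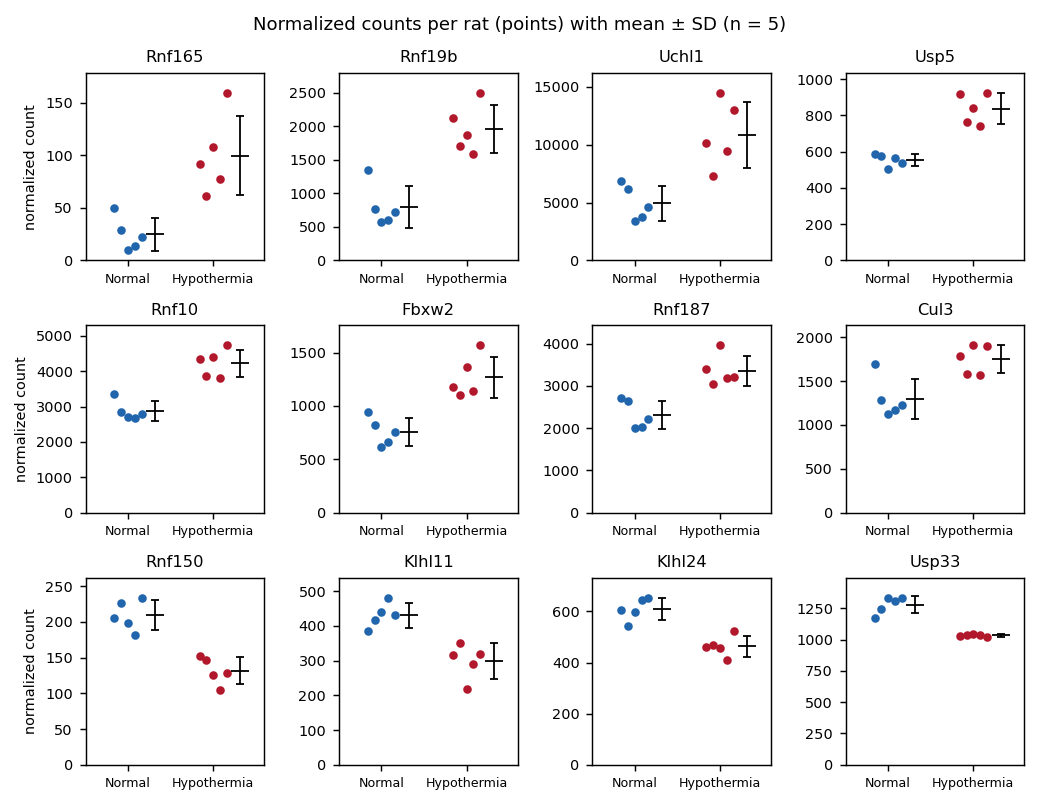
Normalized counts (y axis, linear from 0) of 12 members in each Normal rat (blue) and Hypothermia rat (red), with the mean and SD of each group (black, n = 5). Rnf19b in Normal rat 1 stands at 1340, above the other Normal rats, and Usp33 spans only 1018 to 1047 in the Hypothermia Group.

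The TRIM genes, RING ligases with B-box and coiled-coil parts, went both ways, with 3 of 8 called higher and 3 lower. These are 37.5% each, beside 49.1% and 17.2% of all tested genes, and the median log2 fold change of the family was -0.43. With TMM none was called higher and 5 were called lower, beside 18.8% and 33.8% of all tested genes. DESeq2 made the same 3 higher calls, and all 8 had an unadjusted p under 0.05 by edgeR. Trim2, which ubiquitinates a neurofilament protein, had the highest FPKM of the family, at 12.4 ± 2.24 against 8.64 ± 1.22 (SD, n = 5 each). The rats' normalized counts were 1356, 1056, 1692, 1192 and 1306 in the Hypothermia rats and 1022, 836, 728, 1001 and 996 in the Normal rats, without overlap. The log2 fold change was 0.53 (SE 0.13, adjusted p = 0.0281), and 0.23 with TMM, which was not called. Trim2 kept its call without Hypothermia rats 2 or 4 or Normal rats 1 or 4, and lost it without any one of the other rats (highest adjusted p = 0.0660).

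Trim17, a ligase known from neuronal death, had normalized counts of 193, 183, 246, 170 and 271 against 150, 131, 142, 105 and 141. The lowest Hypothermia rat was above the highest Normal rat, and the log2 fold change was 0.67 (SE 0.15, adjusted p = 0.0177). With TMM it was 0.37 and was not called. Trim36, a microtubule-associated ligase, was close to the lower end of detection. The normalized counts were 21.7, 22.0, 18.8, 26.5 and 16.1 against 12.9, 11.5, 6.37, 6.4 and 12.8, without overlap. Its fold change on the log2 scale was 1.08 (SE 0.31, adjusted p = 0.0481). The call held in only 1 of the 10 fits that left out a rat, the one without Normal rat 1, and the adjusted p reached 0.134 in the others. Trim36 was also not called with TMM, at 0.81.

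Trim59, a membrane-anchored member of the family, had the lowest fold change of all 53 genes. In normalized counts the values were 146, 115, 161, 106 and 79.3 in the Hypothermia rats and 239, 258, 144, 176 and 202 in the Normal rats. Hypothermia rats 1 and 3 lay above Normal rat 3, so the groups overlapped. The test gave a log2 fold change of -0.75 (SE 0.21, adjusted p = 0.0397), and -1.02 with TMM. The call held only without Hypothermia rat 3 or Normal rat 3, and reached an adjusted p of 0.0949 in the other fits. Of the family members known from antiviral defence, Trim25 was called lower at -0.46 (adjusted p = 0.0406), while Trim21 at -0.47 (adjusted p = 0.0888) and Trim5 at -0.40 (adjusted p = 0.0677) were not. Trim25 kept its call without Hypothermia rat 2 or Normal rat 1 and lost it without any one of the others, with adjusted p-values up to 0.107.

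Cullin-RING ligases were represented by scaffolds and by 2 kinds of receptor. Both Cul4a, which binds the adaptor DDB1, and Cul3, which binds BTB proteins, were called higher, and Cul2, the scaffold of the VHL ligase, was not. That is 66.7% of only 3 scaffolds, beside 49.1% of all tested genes called higher. Cul4a had the highest FPKM of the scaffolds, at 37.2 ± 3.33 against 29.3 ± 3.43 (SD, n = 5 each). The rats' normalized counts were 2129, 1913, 2452, 2133 and 2229 in the Hypothermia rats and 1991, 1823, 1488, 1570 and 1684 in the Normal rats. Only Hypothermia rat 2 lay below a Normal rat. The fitted log2 fold change was 0.34 (SE 0.10, adjusted p = 0.0431).

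For Cul3 the normalized counts were 1792, 1587, 1907, 1572 and 1905 against 1696, 1283, 1123, 1176 and 1226. The values overlapped through Normal rat 1 alone. Its fold change on the log2 scale was 0.43 (SE 0.12, adjusted p = 0.0363). For Cul2 they were 532, 526, 660, 565 and 623 against 553, 493, 461, 457 and 476, with a log2 fold change of 0.25 (SE 0.09, adjusted p = 0.0944). Cul2 was called only without Normal rat 1 (adjusted p = 0.0456). With TMM the fold changes were 0.06 for Cul4a, 0.15 for Cul3 and -0.04 for Cul2. Neither call was left, beside 18.8% of all tested genes called higher with TMM. Cul4a kept its call only without Hypothermia rat 2 or Normal rat 1 (highest adjusted p = 0.114). Cul3 kept it only without Hypothermia rats 2 or 4 or Normal rat 1 (highest adjusted p = 0.0969).

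The F-box genes, whose products bring substrates to Cul1, had 4 of 8 called higher, beside 49.1% of all tested genes, and 4 not called. The median log2 fold change of the family was 0.28. With TMM 1 was called higher and 2 lower, Fbxo32 and Fbxo33, beside 18.8% and 33.8% of all tested genes. Fbxw2 had the highest FPKM and the highest fold change of the family (chr3:13871517-13896838, minus strand, Rnor_6.0). The normalized counts of Fbxw2 were 1176, 1098, 1362, 1136 and 1567 in the Hypothermia rats and 947, 821, 613, 660 and 753 in the Normal rats. No Normal rat reached the lowest Hypothermia rat. The test gave a log2 fold change of 0.74 (SE 0.14, adjusted p = 0.00757), and 0.45 with TMM, both called. Fbxo7, a gene linked to Parkinson disease, was chosen after its values were seen. It rose by 0.30 (SE 0.07, adjusted p = 0.0170) with normalized counts of 423 to 450 against 333 to 387, but its value with TMM was 0.01 and was not called. Fbxo32 (atrogin-1), known from wasting muscle, had -0.43 and was not called (adjusted p = 0.0949).

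The BTB-Kelch genes, receptors of Cul3, had 3 of 6 called lower, beside 17.2% of all tested genes, and 3 not called. Their median log2 fold change was -0.31, and with TMM 4 were called lower, beside 33.8% of all tested genes. Of the 3, Klhl8 at -0.34 overlapped between the groups and kept its call only without Hypothermia rat 4 (highest adjusted p = 0.117). Klhl24, known for its action on keratin, had the highest FPKM of the family, at 15.5 ± 1.35 against 20.4 ± 1.45 (SD, n = 5 each). The normalized counts were 462, 469, 456, 410 and 524 in the Hypothermia rats and 607, 545, 598, 645 and 654 in the Normal rats. The groups did not overlap, and the log2 fold change was -0.39 (SE 0.08, adjusted p = 0.0115). Klhl11 had normalized counts of 316, 351, 217, 289 and 320 against 384, 416, 439, 481 and 431 (chr10:88378751-88389347, minus strand, Rnor_6.0). It was lower in 5 of 5 Hypothermia rats than in any Normal rat, with a log2 fold change of -0.53 (SE 0.12, adjusted p = 0.0162). With TMM the values were -0.68 for Klhl24 and -0.81 for Klhl11, both called. Klhl25 at 0.47 (adjusted p = 0.0844) and Klhl30 at 0.63 (adjusted p = 0.0967) had fitted values above 0 and were not called. Herc4, the only HECT ligase that the symbols picked out, had normalized counts of 1176, 935, 1272, 995 and 1067 against 868, 780, 537, 629 and 711. It did not overlap between groups and rose by 0.63 (SE 0.13, adjusted p = 0.0121), while with TMM it had 0.34 and was not called.

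Of the deubiquitinases, Uchl1 was the most abundant, and its FPKM was the highest of all 53 members. Uchl1 is the ubiquitin hydrolase best known from neurons (chr14:43133218-43143973, minus strand, Rnor_6.0). Its FPKM was 614 ± 161 in the Hypothermia Group and 280 ± 85.8 in the Normal Group (SD, n = 5 each). The normalized counts were 10126, 7326, 14447, 9456 and 13037 in Hypothermia rats 1 to 5 and 6854, 6188, 3391, 3712 and 4624 in Normal rats 1 to 5. The lowest Hypothermia rat was above the highest Normal rat, and the spread within both groups was wide. The fitted log2 fold change was 1.13 (SE 0.23, adjusted p = 0.0118), a 2.20-fold difference, and 0.85 with TMM, both called. Otud7b (Cezanne), which removes chains linked through lysine 11, had 1789, 1509, 1978, 1523 and 1995 against 1413, 1305, 1248, 1304 and 1247, without overlap. Its log2 fold change was 0.43 (SE 0.10, adjusted p = 0.0153), and 0.14 with TMM, which was not called.

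The 7 genes with the Usp prefix had 3 called higher (42.9%) and 2 lower (28.6%), beside 49.1% and 17.2% of all tested genes. With TMM 1 was called higher and 4 lower, beside 18.8% and 33.8% of all tested genes. The median log2 fold change of the 7 was -0.27. Usp10, which removes ubiquitin from ribosomal proteins among other targets, had the highest FPKM of them, at 43.1 ± 10.1 against 27.1 ± 4.13 (SD, n = 5 each). In normalized counts the values were 2438, 1804, 3227, 2171 and 2041 against 1709, 1666, 1197, 1299 and 1484. The groups did not overlap, and Hypothermia rat 3 was the highest. Its fold change on the log2 scale was 0.67 (SE 0.16, adjusted p = 0.0196). It was not called with TMM, at 0.38, nor without Normal rat 4 (adjusted p = 0.0572).

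Usp5, which takes apart free ubiquitin chains, was chosen after its values were seen as the member with the lowest adjusted p. The rats' normalized counts were 920, 763, 839, 744 and 922 in the Hypothermia rats and 586, 578, 504, 564 and 535 in the Normal rats. The test gave a log2 fold change of 0.60 (SE 0.08, adjusted p = 0.00540), and 0.31 with TMM, both called. Its locus overlaps that of Cdca3 in the RefSeq annotation. Usp33, a deubiquitinase that acts on receptors at the cell surface, had 1029, 1037, 1047, 1040 and 1018 in the Hypothermia rats. In the Normal rats it had 1172, 1248, 1336, 1309 and 1332. All Hypothermia rats lay below all Normal rats, and their coefficient of variation of 1.07% was the lowest of any member in either group. The fitted log2 fold change was -0.31 (SE 0.06, adjusted p = 0.0121), and -0.60 with TMM. Usp33 overlaps Miga1, and Uchl1 overlaps Apbb2. In all, 22 of the 44 members that could be checked overlap another RefSeq gene, many of them only one with a LOC symbol. The authors counted reads on Rnor_6.0, and their gene annotation may differ from the RefSeq one. Whether reads were counted by strand is not given in the sources used here. Without Usp6nl, which was called lower at -0.27 (adjusted p = 0.0477), 25 of 52 members were called higher and 11 lower.

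When each rat was left out in turn, 18 of the 37 called members kept their call in all 10 fits, 14 of them higher and 4 lower. The 4 lower ones were Rnf150, Klhl11, Klhl24 and Usp33. The higher ones were Rnf165, Rnf19b, Uchl1, Znrf1, Rnf7, Rnf10, Rnf187, Rnf126, Fbxw2, Fbxo7, Trim17, Herc4, Otud7b and Usp5. The number called higher fell to 16 without Normal rat 4 and to 15 without Normal rat 5, and was 17 to 27 without any other rat. The number called lower was 4 without Normal rat 4 and without Normal rat 5. It was 5 without Normal rat 3, 6 without Hypothermia rat 1, 3 or 5 or Normal rat 2, and 7 without Hypothermia rat 4. Without Hypothermia rat 2 or Normal rat 1 it was above these values. With all rats, higher genes made up 67.6% of the called members and 74.1% of the calls among all tested genes. Leave-one-out counts over all tested genes are not given, so these counts show no steadiness particular to the members.

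The members varied among the rats of a group as well. For the 25 members called higher, Normal rat 1 was the highest Normal rat for 20 and Normal rat 3 the lowest for 16. Among all genes called higher these shares were 64.8% and 43.7%. The same 2 rats had the highest and the lowest share of lens fibre markers of the Normal Group, at 52.2% and 22.3% of listed counts. In the Hypothermia Group, rats 3 and 5 were each the highest for 11 of these members (44% each) and rat 2 the lowest for 13 (52%), close to the 45.9%, 41.8% and 58.8% of all genes called higher. Their fibre marker shares were 66.3%, 70.1% and 58.4%. The part of the fibre markers in this order was not tested. For the 12 members called lower, Normal rats 4 and 5 were the highest Normal rats for 5 and 4 of them (41.7% and 33.3%). The same 2 rats were also most often the highest among all genes called lower, at 31.9% and 27.4%. The coefficient of variation within a group had a median of 13.4% in the Hypothermia Group and 11.7% in the Normal Group. Rnf128 varied most in the former, at 55.0%, and Rnf165 in the latter, at 63.2%.

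**Figure D3:**
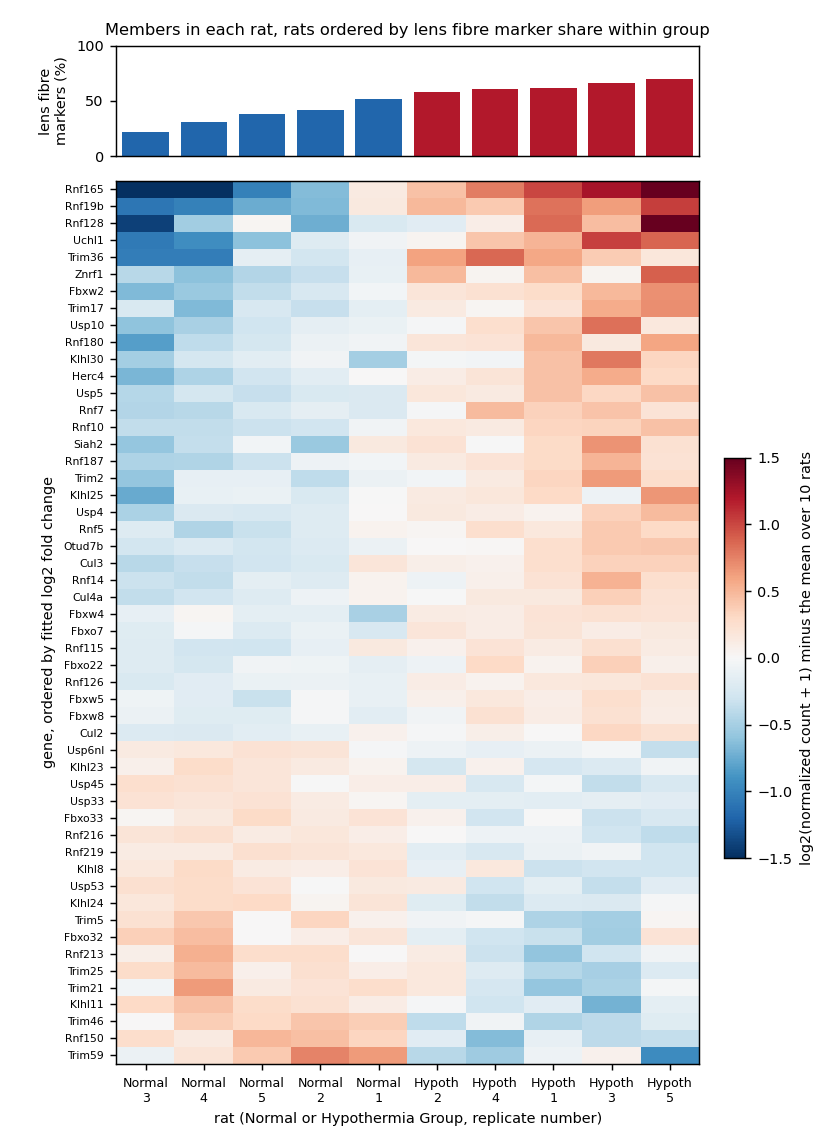
The members (52 rows, ordered by fitted log2 fold change) in the 10 rats (columns, ordered by fibre marker share within each group); colour is log2 of the normalized count plus 1, less the mean of the gene over the 10 rats, and colours end at 1.5 in either direction. The bars above give the share of listed counts in lens fibre markers, from 22.3% in Normal rat 3 to 70.1% in Hypothermia rat 5, and in the upper rows the blue of the Normal Group lightens from left to right.

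The members called higher were also more abundant and shorter than those called lower. Their median FPKM was 19.6 and their median gene length 2319 bases, against 8.52 and 3078 bases for the members called lower. The 16 members not called had medians of 5.70 and 3294 bases. Among all tested genes the medians were 26.2 and 1575 bases for those called higher, 6.59 and 3988 bases for those called lower, and 6.92 and 2636 bases for those not called. Genes called higher were thus more abundant and shorter than genes called lower in the whole table too, while the place of those not called differed. An FPKM of at least 10 was reached by 21 of the 25 members called higher (84%), against 2 of the 12 called lower (16.7%). The same shares of all tested genes were 78.5% and 28.3%.

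**Figure D4:**
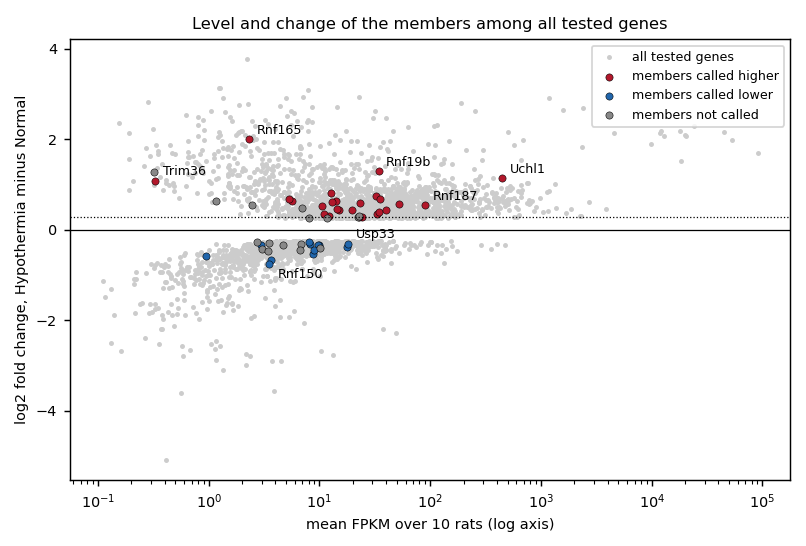
Mean FPKM over the 10 rats (x axis, log scale) against the fitted log2 fold change (y axis) for all 3222 tested genes (grey) and the 53 members (red called higher, blue called lower, dark grey not called). The dotted line is the zero of TMM scaling; Uchl1 stands far to the right of the other members, Trim36 lies at the low end, and the empty band around 0 comes from the selection of the table.

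The sequences before the start sites of 3 members are shown as examples and were chosen after the motif matches were seen. Uchl1 and Rnf19b were called higher by more than 1 on the log2 scale, and Klhl11 had the lowest fold change of the BTB-Kelch genes and holds both motifs marked here. Other members, such as Rnf10 and Usp33, likewise kept their calls with TMM and without any one rat. For the lower calls of Usp33 and Klhl11, TMM could hardly have undone the call. Shown are the 250 bases before the start of Uchl1 (chr14:41849418-41849667, minus strand), Rnf19b (chr5:146690327-146690576, plus strand) and Klhl11 (chr10:85909407-85909656, minus strand). These sequences come from RefSeq on GRCr8. Capitals mark matches to the letters GGGCGG (GC box, on either strand) and to GAANNTTC (a heat shock element).
Uchl1: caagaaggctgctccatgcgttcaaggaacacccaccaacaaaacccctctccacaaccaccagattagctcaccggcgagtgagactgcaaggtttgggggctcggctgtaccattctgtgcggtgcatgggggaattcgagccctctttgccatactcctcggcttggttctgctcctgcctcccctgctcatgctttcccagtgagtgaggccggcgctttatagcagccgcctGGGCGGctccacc
Rnf19b: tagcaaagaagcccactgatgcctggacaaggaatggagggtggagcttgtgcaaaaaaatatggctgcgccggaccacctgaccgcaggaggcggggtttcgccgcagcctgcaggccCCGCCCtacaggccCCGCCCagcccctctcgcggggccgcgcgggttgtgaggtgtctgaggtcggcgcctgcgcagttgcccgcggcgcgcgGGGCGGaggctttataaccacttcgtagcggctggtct
Klhl11: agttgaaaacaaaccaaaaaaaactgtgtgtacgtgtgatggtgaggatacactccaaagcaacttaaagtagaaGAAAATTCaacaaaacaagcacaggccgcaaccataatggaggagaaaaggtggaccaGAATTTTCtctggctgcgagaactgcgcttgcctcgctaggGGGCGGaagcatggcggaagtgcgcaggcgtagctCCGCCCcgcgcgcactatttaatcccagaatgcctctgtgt

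The same windows were searched for all 44 members that matched the RefSeq promoter table. The GC box was found in 63.6% of the members and in 32.4% of all 27457 promoters. Those include promoters of genes outside the table, and the tested genes as a set were not counted apart for any motif. Median GC content was 61.2% for the members and 52.0% for all promoters. GAANNTTC was found in 3 members (6.82%), near the 7.02% of all promoters. These were Trim25, Rnf219 and Klhl11, all called lower, and the share of this motif among all genes called lower was not counted. TTCNNGAA, the other order of the heat shock element, was found in 4 members (9.09%, against 7.23%). These were Rnf180, called higher, Fbxw8, not called, and Trim25 and Rnf219, called lower. In Trim25 it overlaps a GAANNTTC match. CCAAT was found in 9 members (20.5%, against 34.3%). The FoxO element TGTTTAC was found in 0 of 44 members and in 3.25% of all promoters. All 5 motifs were searched on both strands, and a match says only that the letters are present.

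Of the other ubiquitin pathway genes on a list of E1 and E2 enzymes, ligase cores, further ligases and further deubiquitinases, 55 were listed. Of these, 35 were called higher (63.6%, beside 49.1% of all tested genes), 9 lower (16.4%, beside 17.2%) and 11 were not called. The 35 include Ubb, whose row the table types as a pseudogene. The median log2 fold change of the 55 was 0.40. With TMM 14 were called higher and 16 lower, beside 18.8% and 33.8% of all tested genes. Nedd8, the gene for the ubiquitin relative NEDD8, was called higher at 0.65. Of the E2 genes, 7 of 9 were called higher, beside 49.1% of all tested genes, and 2 of 9 with TMM, beside 18.8%. Ube2m, the E2 that attaches NEDD8 to cullins, had normalized counts of 4019 ± 769 against 2124 ± 228 (SD, n = 5 each) and a log2 fold change of 0.92 (SE 0.13, adjusted p = 0.00540). Ube2c, an E2 of mitosis, had -0.92 (SE 0.27) and just missed the threshold.

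Among the cores and regulators of cullin ligases, 9 of 11 were called higher, beside 49.1% of all tested genes. They were Rbx1, the RING subunit shared by several cullins, the adaptors Elob and Eloc, and 6 of 8 listed subunits of the COP9 signalosome. That complex takes NEDD8 off cullins. Under TMM scaling 6 of the 11 were called higher, beside 18.8% of all tested genes. Elob lost its call without Hypothermia rat 3 or 5 or Normal rat 3, 4 or 5 (highest adjusted p = 0.0592). Cops3, another subunit, kept its call only without Hypothermia rat 2 or Normal rat 1 (highest adjusted p = 0.0895). The catalytic subunit Cops5 rose by 0.75 (SE 0.12, adjusted p = 0.00621). Of the anaphase-promoting complex, all 5 listed Anapc genes were called higher, beside 49.1% of all tested genes. TMM left 2 of the 5 called higher, Anapc5 and Anapc13, beside 18.8%. The highest change was that of Anapc13 at 0.95 (SE 0.14, adjusted p = 0.00540), while Cdc20, the activator of the complex, had -0.54 and was not called (adjusted p = 0.116). The further ligases and receptors went both ways, with 6 of 19 called higher and 8 lower, beside 49.1% and 17.2% of all tested genes. TMM gave 1 and 12, beside 18.8% and 33.8%. Stub1, a ligase that works with chaperones, rose by 0.71 (SE 0.11, adjusted p = 0.00582). Mylip, which degrades the LDL receptor, fell by 0.52 (SE 0.12, adjusted p = 0.0158), and Smurf1, which acts on SMAD proteins, by 0.45 (SE 0.11, adjusted p = 0.0206). Smurf1 lost its call without Normal rat 4 or Normal rat 5 (highest adjusted p = 0.0568). Of 5 further genes listed as deubiquitinases, 3 were called higher (Eif3f, Josd2 and Stambpl1), beside 49.1% of all tested genes. The symbol of Eif3f is that of a translation factor subunit. With TMM 1 of the 5 was called higher, beside 18.8%. The highest change was that of Stambpl1 at 0.95 (SE 0.14, adjusted p = 0.00554), and Cyld, an inhibitor of NF-kB signalling, was called lower at -0.36 (adjusted p = 0.0128).

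**Figure D5:**
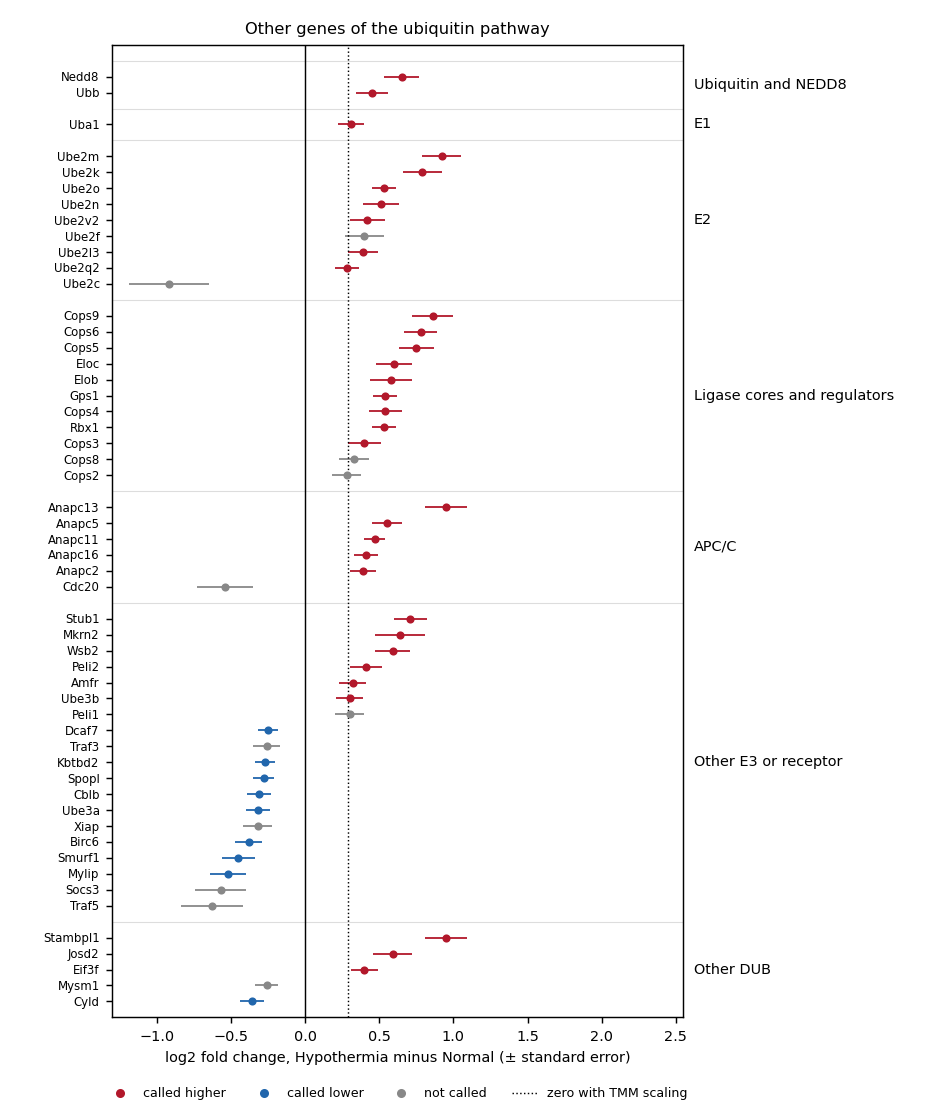
Fitted log2 fold changes (Hypothermia minus Normal, x axis) of 53 other ubiquitin pathway genes with bars for the standard error, grouped by role; red points were called higher, blue lower and grey not called by edgeR. The dotted line is the zero of TMM scaling, and the blue points lie among the further ligases and receptors and at Cyld.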

How the data were processed

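RNA sequencing of lens capsules from 5 Hypothermia and 5 Normal rats was analysed; the proteome was not used here. Reads were aligned by the authors with HISAT2 2.0.5 (Rnor_6.0) and counted with featureCounts 1.5.0-p3 (submitters' processing notes), and the deposited counts are whole reads per gene. The FPKM values that the authors deposited followed the counts divided by gene length and by the authors' size factors (100% of values within 1%). The group means that the authors deposited are a signal on the scale of normalized counts. Columns with the fold changes and p-values that the authors obtained from DESeq2 1.16.1 were not used.

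Size factors were recovered by least squares from the group means (largest relative error 9.66e-10). The quasi-likelihood test of edgeR 4.0.16 (R 4.3.3; robust estimateDisp and glmQLFit, then glmQLFTest) was run on the 3222 of 3334 genes that filterByExpr kept. A standard error is the size of the log2 fold change over the root of its F statistic. Since the table is a selected list, p-values were adjusted by the Benjamini-Hochberg method over 20000 genes, a round number above the listed genes, and a gene was called at an adjusted p under 0.05. The table holds 124 genes without a name and 4 names turned into dates. The heat map used log2 with a pseudocount of 1.

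The members, lists, scaling and adjustment were chosen with earlier results of these data known. Members were named if called beyond 1 on the log2 scale, if they had the highest or lowest called fold change of a family at a mean normalized count of at least 50, if they had the highest FPKM of a family, or if the family had at most 4 members. Of other pathway genes, the 2 highest and 2 lowest called were named by the rule, and the rest were chosen after their values were seen. The alternatives were TMM, median-of-ratios and listed-total scaling, DESeq2 1.42.0, other filters, adjustment over the tested genes, the replicate number as a block, and each rat left out.

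Listed counts summed to between 4792595 and 12415121 per rat, which is a part of each library. On simulated counts for this comparison (3222 genes, 200 of them changed by 1 on the log2 scale), 79.5% of changed genes and 1 unchanged gene were called. The simulation had known size factors and no selection of genes, so it does not give the rate of false calls in the table. Replicates are separate rats. Promoters came from RefSeq on GRCr8 (44 of 53 members matched, 1 of them by an older symbol). Some listed genes are not reported here by name and are left out of the plots that label genes. Figures were drawn with matplotlib 3.10.9.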

Additional observations from a re-analysis of the deposited data

Results flagged for a closer look

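Of 48 sets of 5 rats checked for the named genes, 2 held a rat far from the rest, and chance gives about 1 in 20. Normal rat 1 had a normalized count of 1340 for Rnf19b, and the gap to the next Normal rat took 0.752 of the range of the group, above the limit of 0.71. The same rat had 1696 for Cul3, with a gap of 0.721 of the range. Normal rat 1 also had the highest lens fibre marker share of the Normal Group (52.2% of listed counts), and its part in these values was not tested.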

How the results depend on the processing

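Scaling had the largest effect on the counts of calls. Of the 53 members, 25 called higher became 6 with TMM, 6 with median-of-ratios factors, 0 with listed totals (25 by edgeR with the size factors of the authors) and 15 with TMM and adjustment over the tested genes, and 12 called lower became 20, 20, 42 and 20. Beyond 1 on the log2 scale, 4 higher became 2, 1, 0 and 2, and 0 lower became 1, 1, 20 and 1. The 35 other pathway genes called higher became 14, 12, 0 and 22, and the 9 called lower became 16, 16, 45 and 16. The median log2 fold change of the members, 0.30, became 0.01, -0.01, -0.92 and 0.01. Median-of-ratios and listed totals moved the median of all genes by -0.31 and -1.23. TMM changed the share of all tested genes called higher from 49.1% to 18.8%, and the share called lower from 17.2% to 33.8%. For the other settings, here and in the next paragraph, shares over all tested genes are not given. Their counts therefore describe no change particular to the members. Cul2 reversed to -0.04 with TMM (also with the adjustment), -0.06 with median-of-ratios and -0.98 with listed totals. Listed totals also reversed Uchl1 (-0.08), Trim36 (-0.05), Cul3 (-0.78), Cul4a (-0.88), Fbxw2 (-0.48), Herc4 (-0.58), Otud7b (-0.82), Rnf187 (-0.68), Trim17 (-0.60), Trim2 (-0.71), Usp10 (-0.55), Stambpl1 (-0.23) and Anapc13 (-0.30). Adjustment over the tested genes alone called all 53 members, 33 higher and 20 lower, and gave 39 other pathway genes called higher and 16 lower, and DESeq2 gave 14 other pathway genes called lower. DESeq2 called 45 members, among them all 37 called by edgeR.

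Same-numbered rats are different animals, and their deviations correlated between -0.169 and 0.234, none best with its own number. With the replicate number as a block, 10 members were called higher (2 beyond 1) and 1 lower, and 14 and 1 of the other pathway genes. Leaving out each rat gave 15 to 27 members called higher and 4 to 13 lower, and 22 to 36 and 2 to 11 of the other pathway genes. Depth limits genes such as Trim36 and Rnf128, with fewer than 50 normalized counts in every rat. The causes of these changes were not tested.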
